A study of Mus musculus with 4 samples.

Results

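The Hox cluster genes form the subject of these measurements. Members were 38 Hox genes given by symbol, out of 28883 genes with at least 1 entry in the deposited methylation profiles, matched by Ensembl identifier in GENCODE vM21, together with every CpG island that overlapped one of them. DNA methylation was profiled in C3H10T1/2, an embryonic mouse cell line with mesenchymal stem cell properties, to ask what loss of DNMT1 does to methylation before and during osteoblast (OB) differentiation. DNMT1 is the maintenance methyltransferase, which keeps the CpG pattern of a cell when it divides. The 4 libraries were 1 of cells transfected with control siRNA for 48 h (NC uninduced), 1 with DNMT1 siRNA for 48 h (siDNMT1 uninduced), and 1 of each after 3 days in OB induction medium with ascorbic acid, β-glycerophosphate and dexamethasone (NC OB and siDNMT1 OB). All 4 came from the same cell line, and no library was replicated, so no difference given here has a replicate error or a p-value. The profiles hold no expression, so neither the cell type nor the depletion of DNMT1 could be checked against marker genes.

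Each value is a methylation level, the fraction of CpG cytosines read as methylated in a region, between 0 and 1. The number of reads behind a level is unknown, which leaves its counting error unknown as well. Per library 155398 to 159705 regions had a level, and the median over all promoters was 0.197 in NC uninduced, 0.196 in siDNMT1 uninduced, 0.180 in NC OB and 0.167 in siDNMT1 OB cells. Regions with a level in all 4 libraries were compared, and a difference of at least 0.1 was called a rise or a fall. The comparisons of siDNMT1 with NC and of OB with uninduced cells use the same 4 libraries.

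Hox genes encode homeodomain transcription factors that give cells their position along the head-to-tail axis and, in limbs, from shoulder to digit. They lie in clusters in which the order of the genes follows the order of the body regions that use them, with low paralog numbers (anterior) at one end and high numbers (posterior) at the other. Silent Hox genes are held by Polycomb complexes over long CpG islands that in many tissues carry little DNA methylation, and mesenchymal cells are known to keep a Hox code of the place they came from. The 10 Hoxa members lie on the minus strand of chromosome 6 (chr6:52162417-52260880), the 10 Hoxb members on chromosome 11 (chr11:96194316-96368256), the 9 Hoxc members on chromosome 15 (chr15:102921103-103036852) and the 9 Hoxd members on chromosome 2 (chr2:74668310-74765142), all in GRCm38.

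A level in all 4 libraries was listed for the 2 kb promoter of 33 of the 38 members. Hoxc4 lacked a promoter level in siDNMT1 OB cells, and Hoxa2, Hoxb4, Hoxb8 and Hoxc11 had none in any library. Among the entries within genes, 26 members had a complete 5′ UTR, 37 a complete exon, 31 a complete intron and 17 a complete 3′ UTR level, which made 111 of 152 possible gene entries. All 58 islands that overlapped a member had 4 levels. These entries are not independent, since 16 of the 33 promoter windows overlapped another member gene and some islands lay inside a promoter, a UTR or several genes.

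The sequences of 4 islands are shown because they carry the extremes of level and the largest differences described below. They were read from the RefSeq genome of GRCm38.p6, 5′ to 3′ on the strand of the gene, with every CpG, the site of methylation, in capitals. The first is the least methylated of the 58 islands in NC uninduced cells, in an intron of Hoxa3 (chr6:52211662-52211870, 209 bases, 24 CpG). The second holds the Hoxa6 start site (chr6:52208719-52208947, 229 bases, 28 CpG) and the third, the most methylated, lies in an exon of a Hoxa9 transcript with a retained intron (chr6:52229019-52229288, 270 bases, 24 CpG). The third island lies upstream of the RefSeq start of Hoxa9 at 52227370. The fourth is the first 300 bases, with 33 CpG, of the 309-base island in the Hoxd4 coding exon (chr2:74727334-74727633).
Hoxa3 intron island: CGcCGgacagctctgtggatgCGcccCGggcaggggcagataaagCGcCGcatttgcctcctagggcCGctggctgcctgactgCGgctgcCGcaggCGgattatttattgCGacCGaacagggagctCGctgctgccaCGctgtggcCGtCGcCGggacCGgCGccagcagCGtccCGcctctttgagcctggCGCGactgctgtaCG
Hoxa6 start island: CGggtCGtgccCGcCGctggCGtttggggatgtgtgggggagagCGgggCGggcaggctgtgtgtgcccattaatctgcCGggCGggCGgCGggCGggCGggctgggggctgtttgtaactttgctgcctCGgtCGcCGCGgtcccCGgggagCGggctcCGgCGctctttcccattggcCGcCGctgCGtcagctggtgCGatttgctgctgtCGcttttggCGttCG
Hoxa9 exon island: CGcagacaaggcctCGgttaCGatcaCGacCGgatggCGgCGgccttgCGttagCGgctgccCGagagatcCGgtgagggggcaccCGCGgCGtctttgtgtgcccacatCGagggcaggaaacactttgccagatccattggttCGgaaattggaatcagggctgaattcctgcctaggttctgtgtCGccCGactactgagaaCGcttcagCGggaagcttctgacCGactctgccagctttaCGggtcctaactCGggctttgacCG
Hoxd4 exon island: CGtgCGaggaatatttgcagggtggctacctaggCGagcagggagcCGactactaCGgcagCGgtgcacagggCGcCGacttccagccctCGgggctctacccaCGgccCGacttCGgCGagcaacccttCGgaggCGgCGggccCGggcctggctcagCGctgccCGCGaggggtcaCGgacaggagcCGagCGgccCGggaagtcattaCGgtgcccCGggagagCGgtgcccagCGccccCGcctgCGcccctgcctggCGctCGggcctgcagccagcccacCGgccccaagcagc

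Most Hox regions carried intermediate methylation. In NC uninduced cells the 33 Hox promoters had a median level of 0.331, between 0.0144 at Hoxa4 and 0.787 at Hoxa3, and 26 of them (78.8%) lay between 0.2 and 0.8. Over all 20152 promoters the median was 0.191 and 45.5% lay in that band. For islands the gap to the whole genome was wider. The median of the 58 Hox islands was 0.369 and 46 (79.3%) were in the band, against a median of 0.0323 and 25.6% for all 14095 islands. Levels under 0.05 were found in 3 of the 58 Hox islands and in 7782 of all islands. The 111 gene entries had a median of 0.301, with 0.347 over all 56003 gene entries. The shape was alike in the other libraries, in which the Hox promoter medians were 0.334, 0.310 and 0.297 and the Hox island medians 0.342, 0.334 and 0.306 in siDNMT1 uninduced, NC OB and siDNMT1 OB cells.

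**Figure D1:**
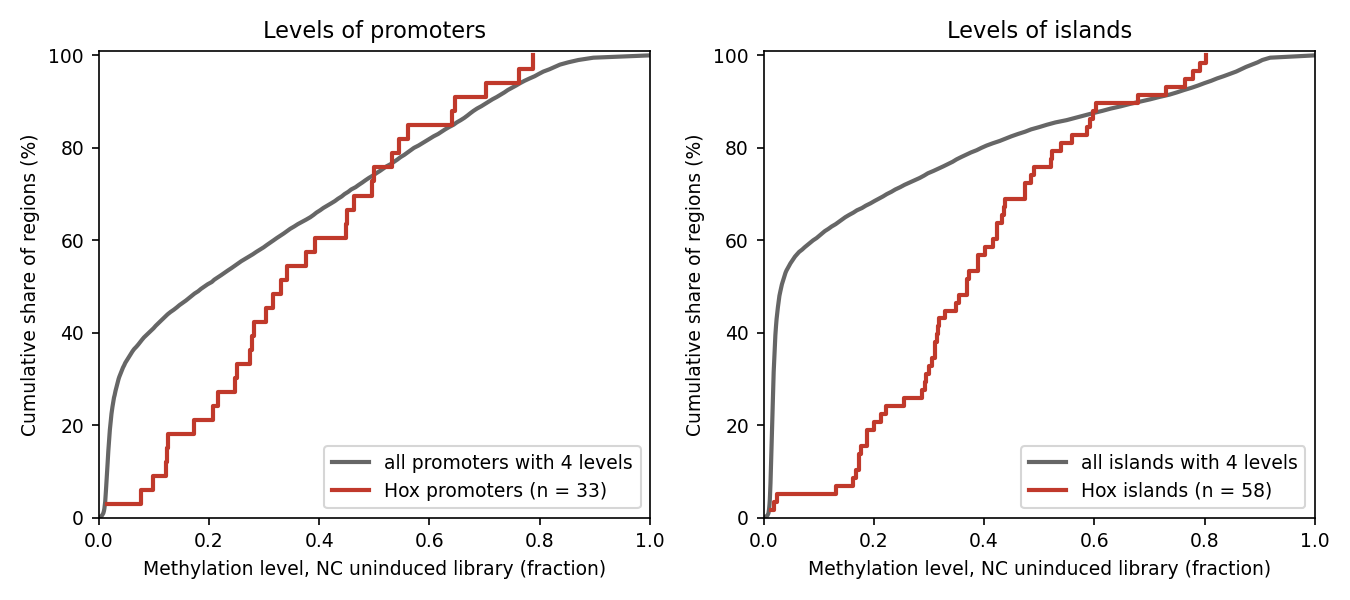
Cumulative share of regions (%) against methylation level (fraction) in the NC uninduced library, for promoters (left) and CpG islands (right). Red lines show Hox regions and grey lines all regions with 4 levels. The grey island line climbs past 50% below a level of 0.05, while 3 of the 58 Hox islands lie there.

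The Hoxa cluster held both the lowest and the highest levels of the 4 clusters. Its 9 promoters with levels had a median of 0.546, against 0.293 for Hoxb, 0.278 for Hoxc and 0.316 for Hoxd. Hoxa3, needed for the pharyngeal arches, thymus and parathyroid, had a promoter level of 0.787 in NC uninduced, 0.743 in siDNMT1 uninduced, 0.720 in NC OB and 0.670 in siDNMT1 OB cells. Hoxa4, an anterior gene of the neck vertebrae, had 0.0144, 0.0253, 0.0132 and 0.0231 in the same order, and was the one Hox promoter under 0.05 in every library. The promoters of Hoxa5, Hoxa6, Hoxa9, Hoxa10, Hoxa11 and Hoxa13 lay between 0.463 and 0.702 in NC uninduced cells, and that of Hoxa7 at 0.123. Hoxa2, which sets the identity of the second pharyngeal arch, had no promoter level, but its exons were at 0.0224, 0.0203, 0.0197 and 0.0201.

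Along Hoxa the islands alternated between high and low stretches. From the anterior end, the levels in NC uninduced cells were 0.390 and 0.764 in Hoxa3, 0.173 at the start of Hoxa4, 0.523 at the start of Hoxa5 and 0.401 at the start of Hoxa6. The next 3 islands, 1 in the Hoxa3 intron and 2 over Hoxa7, were at 0.0128, 0.0238 and 0.0190. The other Hoxa7 entries were low too, with 0.0303 in exons, 0.0255 in the 5′ UTR and 0.0414 in the 3′ UTR. In GENCODE, Hoxa3 extends past Hoxa4, Hoxa5 and Hoxa6, and its start lies 50.9 kb from the anterior end. Its 2 kb promoter window there falls between the Hoxa3 intron island and the first Hoxa7 island. The Hoxa3 promoter was listed at 0.787, while the Hoxa7 3′ UTR, which overlaps that GENCODE window, was at 0.0414. The window behind the listed promoter level is not known, so its place in this stretch is uncertain. Past Hoxa7 the levels were high again, and the 6 islands over Hoxa9 and the 3′ side of its neighbour Hoxa10 lay between 0.586 and 0.802. Hoxa9, a regulator of blood progenitors, also had the highest exon level of the members, 0.788, and their highest 3′ UTR level, 0.846.

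The least methylated island, printed above for the Hoxa3 intron, had 0.0128 in NC uninduced, 0.0192 in siDNMT1 uninduced, 0.0158 in NC OB and 0.0196 in siDNMT1 OB cells. The most methylated island, that of the Hoxa9 exon, had 0.802, 0.818, 0.800 and 0.774. Both have 24 CpG, in 209 and 270 bases. Hoxa10, a gene that keeps the lumbar vertebrae free of ribs, joined both kinds of sequence. Its exons were at 0.609 and its 3′ UTR at 0.822, while the island just inside its start site was at 0.131, a value equal to that of its 5′ UTR in every library. Beyond it, the islands at the starts of Hoxa11 and Hoxa13 were at 0.491 and 0.330. All 17 islands kept to these stretches in the other 3 libraries, as the plot of Hoxa islands shows.

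**Figure D2:**
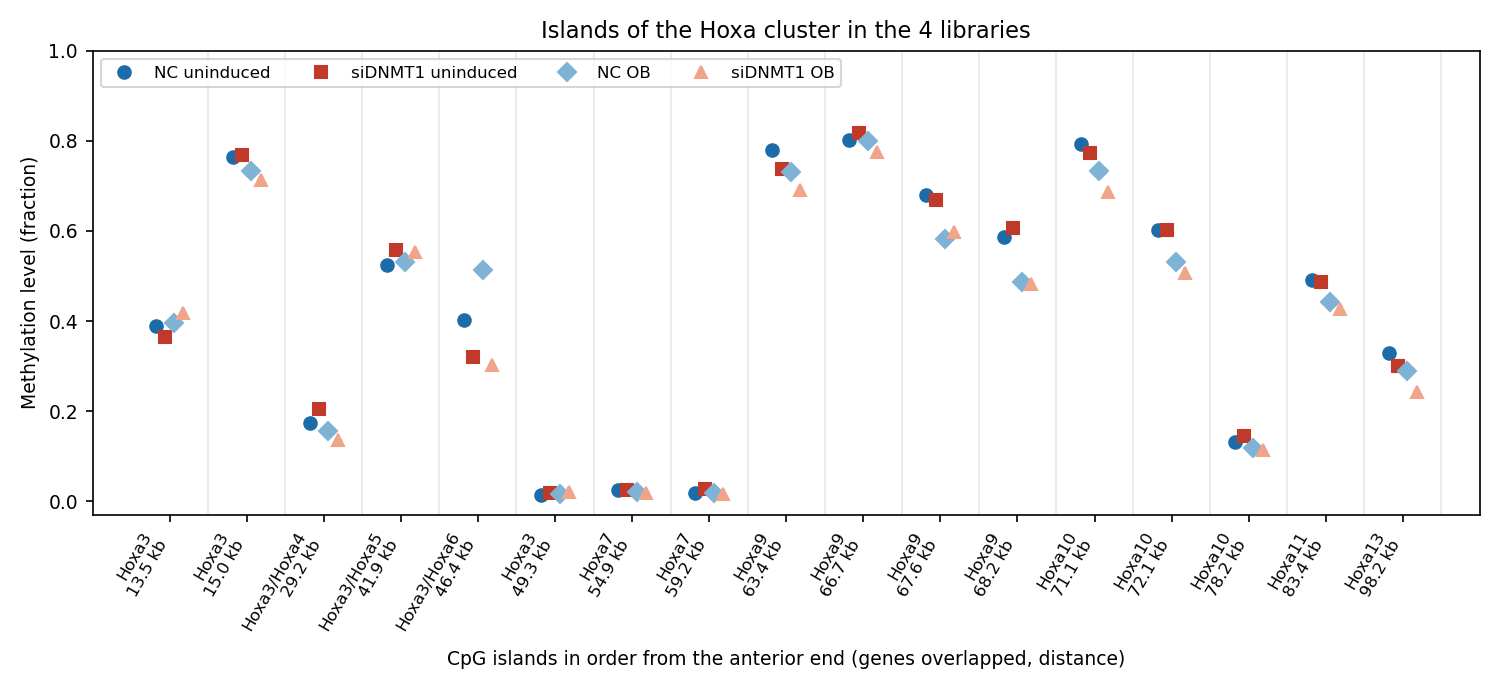
Methylation level (fraction) of the 17 CpG islands over Hoxa members, in order from the anterior end, with 1 point for each of the 4 libraries; the label gives the genes overlapped and the distance in kb. The 3 islands from 49.3 to 59.2 kb lie under 0.05 in every library, next to 6 islands of at least 0.482, and the island at the Hoxa6 start spreads from 0.302 to 0.514.

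Levels were more even in the other clusters. The 16 Hoxb islands ran from 0.163 to 0.730 with a median of 0.312, the 14 Hoxc islands from 0.213 to 0.598 with a median of 0.318, and the 11 Hoxd islands from 0.177 to 0.592 with a median of 0.437. No island in these 3 clusters was under 0.05 in any library. Among Hoxb promoters the lowest was Hoxb1, which sets rhombomere identity in the hindbrain, at 0.122, 0.132, 0.114 and 0.105 in NC uninduced, siDNMT1 uninduced, NC OB and siDNMT1 OB cells. The highest was Hoxb2, another hindbrain gene, at 0.762, 0.736, 0.793 and 0.720, and the other 6 lay between 0.247 and 0.375 in NC uninduced cells.

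In Hoxc the promoter levels peaked in the middle of the cluster, at Hoxc10, which acts in the lumbar spinal cord and hindlimb, with 0.562, 0.584, 0.551 and 0.535. The lowest was Hoxc13, needed for hair and nails, with 0.0759, 0.0860, 0.0877 and 0.0913. In Hoxd the extremes in NC uninduced cells were Hoxd11, a forearm gene, with 0.495, 0.454, 0.421 and 0.414, and Hoxd4, a gene of the hindbrain and neck, with 0.0985, 0.0936, 0.104 and 0.102. Hoxd10 or Hoxd13 was the highest Hoxd promoter in the other 3 libraries. The level of Hoxd11 was highest in the NC uninduced library, whereas those of Hoxc13 and Hoxd4 varied little over the 4 libraries.

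**Figure D3:**
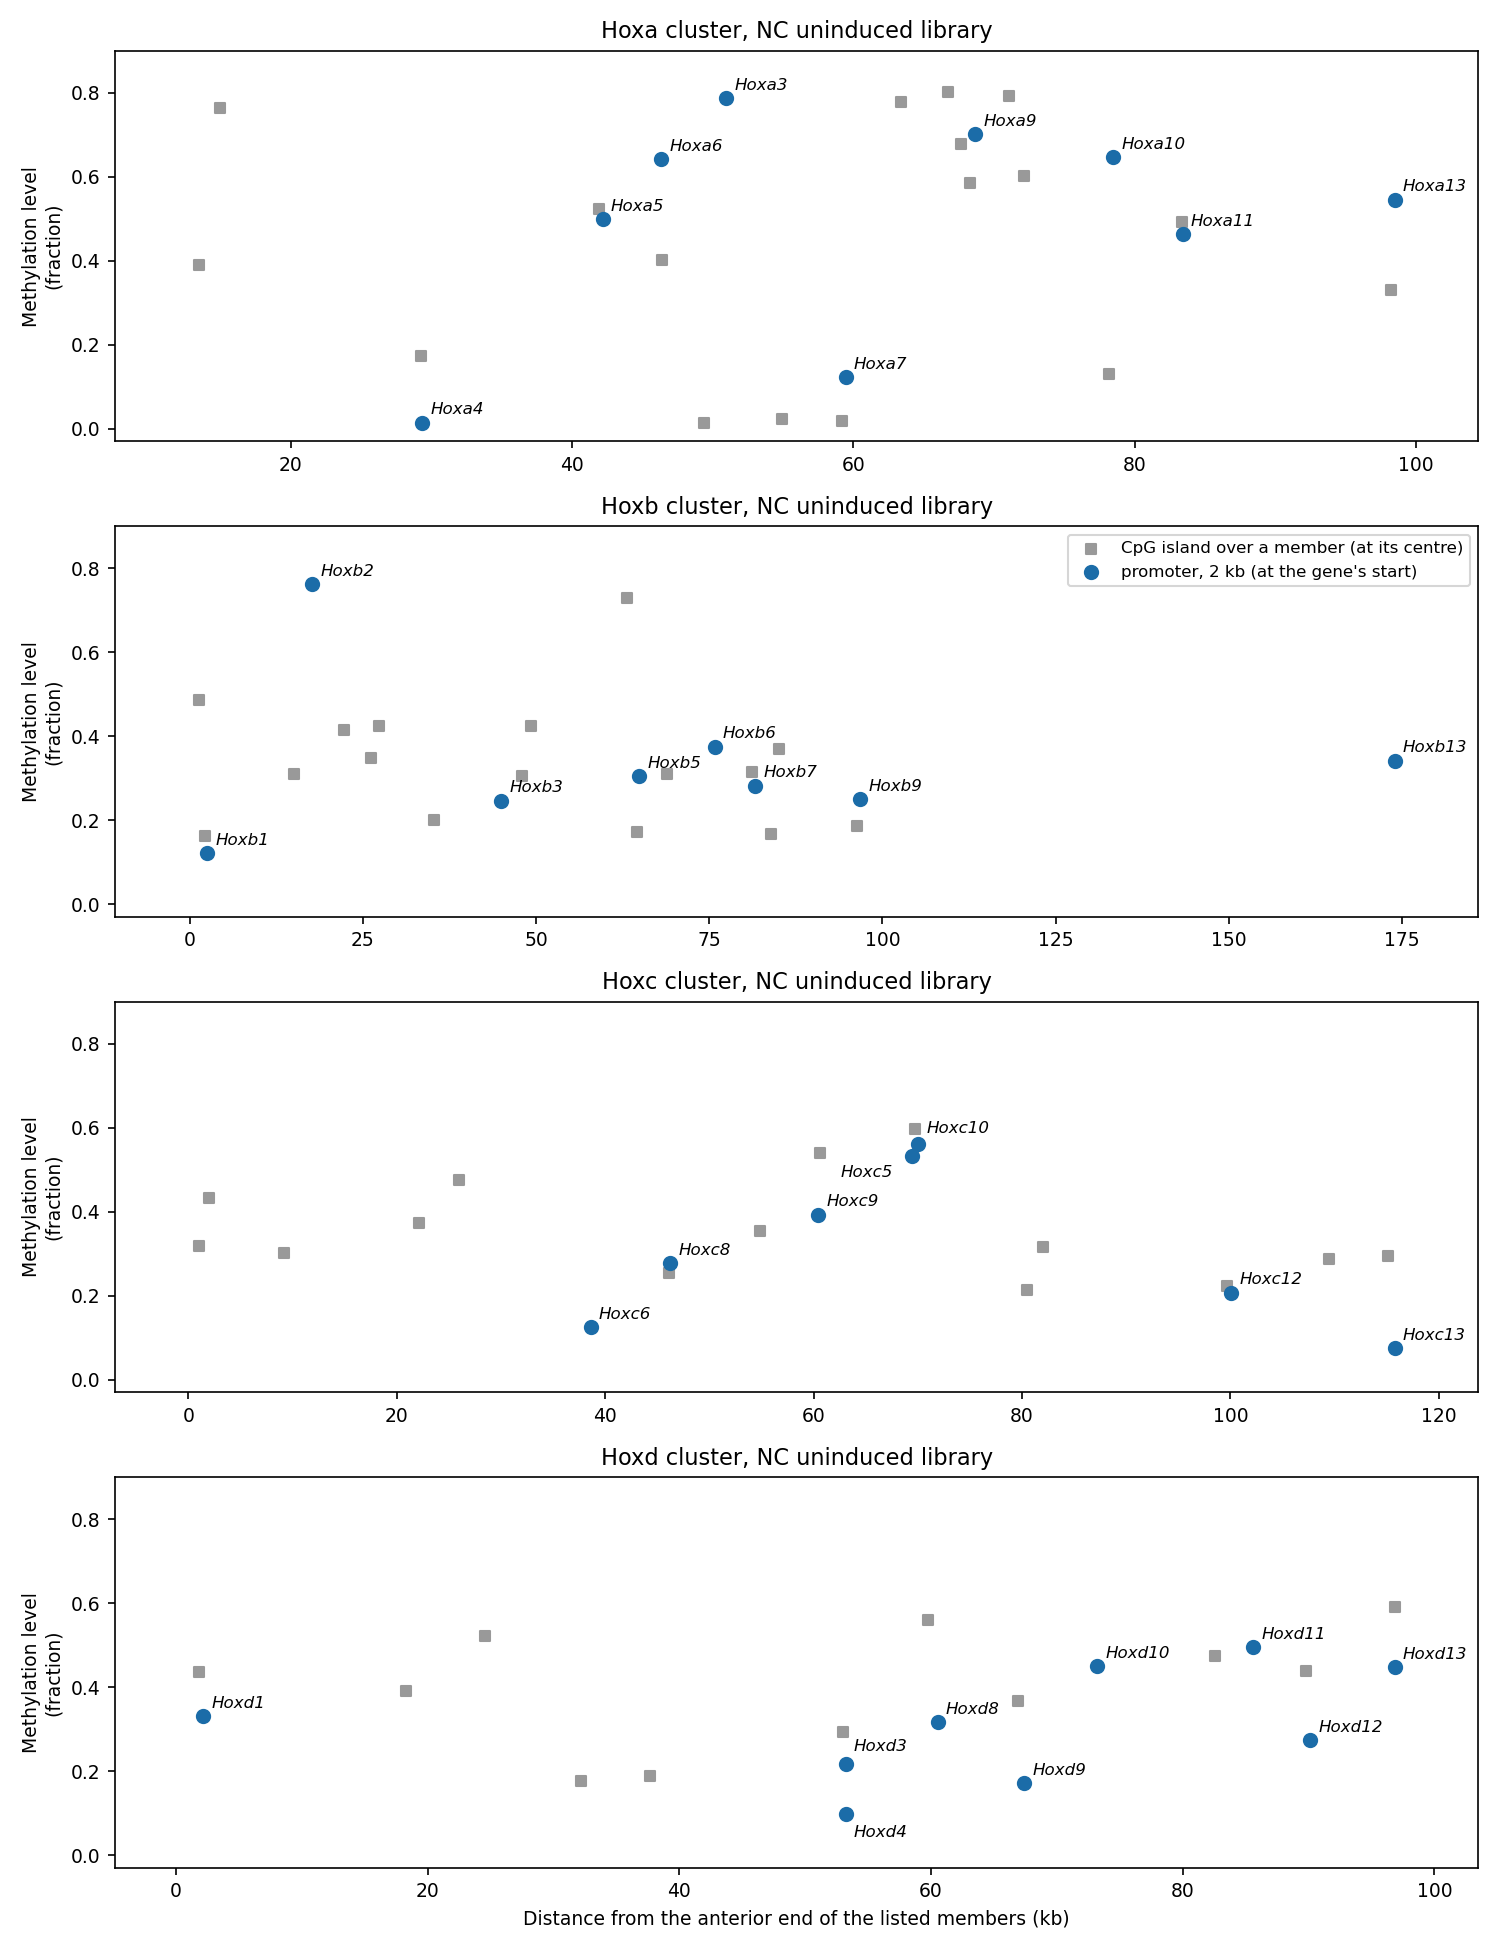
Methylation level (fraction) in the NC uninduced library against distance from the anterior end of the listed members (kb), 1 panel per cluster; blue circles are 2 kb promoters at the GENCODE start of the gene and grey squares are CpG islands over a member. Hoxa spans 0.0128 to 0.802, while no island of the other clusters lies below 0.163.

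By place in the cluster, the median promoter level in NC uninduced cells was 0.232 for the 8 anterior genes (paralogs 1 to 4), 0.310 for the 10 central genes (5 to 8) and 0.448 for the 15 posterior genes (9 to 13). Position gave no even gradient, however. Spearman's rho of promoter level with distance from the anterior end was 0.23 in Hoxa (n = 9), 0.21 in Hoxb (n = 8), -0.11 in Hoxc (n = 7) and 0.47 in Hoxd (n = 9), as a description over regions of 1 library that share sequence. For islands it was 0.14 in Hoxa (n = 17), -0.23 in Hoxb (n = 16), -0.42 in Hoxc (n = 14) and 0.40 in Hoxd (n = 11). CpG density bore no clear relation to level either, with a rho of 0.047 over 33 promoters and -0.062 over 58 islands. The 14 islands that hold a member's start had a median of 0.323 (0.0190 to 0.598) and the other 44 a median of 0.370 (0.0128 to 0.802).

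A promoter level depends on which start site was used and which CpG were read. For 11 members the GENCODE and RefSeq starts lie more than 500 bases apart, among them Hoxa7, Hoxa9, Hoxb2, Hoxb3, Hoxc5 and Hoxd4. The widest gaps were 46565 bases at Hoxc5, 16225 at Hoxb3 and 10049 at Hoxd4. The promoter distances and promoter CpG densities behind the rho values above use GENCODE starts, and rho with RefSeq starts was not computed. GENCODE starts Hoxd3 and Hoxd4 2 bases apart, yet their promoters were listed at 0.217 and 0.0985, so the window behind at least one of them is not the GENCODE one. The Hoxc12 promoter had in every library the levels of a single island upstream with 25 CpG, although the window holds 71, so its 0.207 in NC uninduced cells describes that island.

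With DNMT1 siRNA, few Hox regions differed by as much as 0.1. In uninduced cells none of the 33 Hox promoters rose or fell by 0.1, where 0.814% of all promoters fell and 0.670% rose, and in OB cells again none did, where 1.41% fell and 0.794% rose. In uninduced cells the differences ran from -0.0443 at Hoxa3 to 0.0224 at Hoxc10, with 16 promoters lower and 17 higher in siDNMT1 cells and a median difference of 0.00112 (all promoters, -0.000713). In OB cells 23 were lower and 10 higher, with a median of -0.00856 (all promoters, -0.00371). This Hox median turned to 0.00148 once each library was centred on its own promoter median. After that centring 45.5% of Hox promoters were lower in siDNMT1 OB cells, against 37.7% of all promoters. Among promoters of intermediate level (mean of 0.2 to 0.8) the OB median was -0.0126 for Hox promoters and -0.0168 for all. Of these, 72.0% and 73.8% were lower in siDNMT1 cells. In uninduced cells the medians at that level were 0.00199 and -0.00562. The differences nearest the threshold were those of Hoxa6 and Hoxb2 in OB cells, -0.0880 and -0.0729.

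Of the 111 gene entries, 1 fell and 2 rose in uninduced siDNMT1 cells, where 0.866% of all gene entries fell and 0.700% rose. In OB cells 2 fell and 1 rose, where 1.45% fell and 0.700% rose. Of the 58 islands, 1 fell in each comparison and none rose, where 0.255% of all islands fell and 0.227% rose before induction and 0.355% fell and 0.326% rose after it. These counts involve 5 regions, of Hoxa5, Hoxa6, Hoxc13 and Hoxd4. Without annotated regions of fewer than 10 CpG, 1 gene entry was left in each siDNMT1 comparison, the 3′ UTR of Hoxa5.

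Hoxa6, a central gene that patterns the thoracic skeleton, gave the largest falls with siDNMT1. Its 5′ UTR had a level of 0.302 in NC and 0.130 in siDNMT1 uninduced cells, and 0.446 in NC and 0.150 in siDNMT1 OB cells. Both siDNMT1 libraries lay below both NC libraries, with siDNMT1 minus NC at -0.172 without and -0.296 with induction. This UTR (chr6:52208625-52208722) is 98 bases long with 4 CpG, so few sites carry the value. The adjoining island with 28 CpG, printed above, also lay lower in both siDNMT1 than in both NC libraries, 0.401 and 0.320 in uninduced and 0.514 and 0.302 in OB cells. For the island siDNMT1 minus NC came to -0.0811 before and -0.211 after induction.

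Over longer stretches of Hoxa6 the difference was smaller. The 2 kb promoter, which contains nearly the whole island and 58 CpG, had 0.641 in NC and 0.600 in siDNMT1 uninduced cells, and 0.663 in NC and 0.575 in siDNMT1 OB cells. Its exons had 0.587, 0.572, 0.642 and 0.595 in the order NC uninduced, siDNMT1 uninduced, NC OB and siDNMT1 OB, a range in which siDNMT1 OB cells did not lie below NC uninduced cells. From NC uninduced to NC OB cells the island rose by 0.113 and the 5′ UTR by 0.144, while OB minus uninduced in siDNMT1 cells was -0.0176 and 0.0199. The 4 Hoxa6 entries share sequence and are not separate observations.

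**Figure D4:**
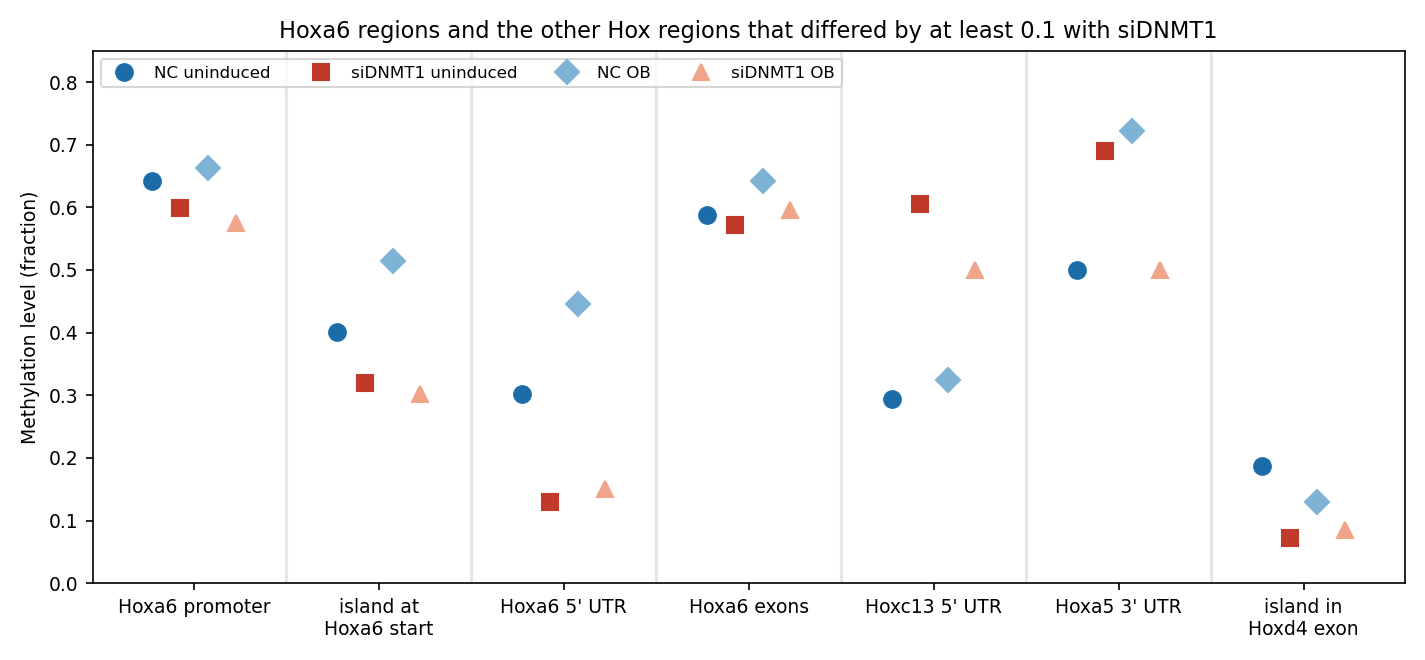
Methylation level (fraction) in each of the 4 libraries for 4 regions at Hoxa6 and for the 3 other Hox regions that differed by at least 0.1 with siDNMT1; each point is 1 library. At Hoxa6 the siDNMT1 points lie below the NC points of the same state in all 4 regions, the 5′ UTR of Hoxc13 shows the opposite order, and the 3′ UTR of Hoxa5 crosses.

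The 5′ UTR of Hoxc13 was the one region that rose in both states. It had 0.294 in NC and 0.605 in siDNMT1 uninduced cells, and 0.325 in NC and 0.500 in siDNMT1 OB cells. The region is 85 bases long and holds 2 CpG, and no other Hoxc13 entry changed by 0.1, with exon levels of 0.289 and 0.295 in uninduced and 0.265 and 0.254 in OB cells. The 3′ UTR of Hoxa5, a gene of lung and neck-to-thorax patterning, had 0.500 in NC and 0.690 in siDNMT1 uninduced cells, but 0.722 in NC and 0.500 in siDNMT1 OB cells. It rose by 0.190 in one state and fell by 0.222 in the other, over 830 bases with 12 CpG. The Hoxa5 promoter stayed between 0.499 and 0.551.

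The Hoxd4 exon island, also inside the Hoxd3 span, had 0.188 in NC and 0.0727 in siDNMT1 uninduced cells, and 0.130 in NC and 0.0851 in siDNMT1 OB cells. It was lower in siDNMT1 cells in both states, with differences of -0.115 and -0.0451, and with 35 CpG it is the largest of the 5 regions by CpG number. The Hoxd4 exons as a whole, with 133 CpG, had 0.359, 0.364, 0.326 and 0.348 and did not show the fall.

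Most gene entries differed by far less than 0.1 with siDNMT1. Of the 29 Hoxa gene entries, 22 were lower in siDNMT1 cells without induction and 21 with it. Of the 31 Hoxb gene entries, 10 were lower without induction and 21 with it. Hoxc had 13 and 16 of 28 lower, and Hoxd 10 and 12 of 23. Over all genes 56.8% of gene entries were lower without induction and 67.8% with it. In OB cells the share was 72.4% in Hoxa and 67.7% in Hoxb, but 57.1% in Hoxc and 52.2% in Hoxd. By place, the posterior gene entries were lower in OB siDNMT1 cells in 36 of 46 cases, the central ones in 17 of 33 and the anterior ones in 17 of 32. Over all 111 entries the median difference was 0.000166 without and -0.00816 with induction, beside -0.00200 and -0.00737 for all genes. The Hox median with induction turned to 0.00318 after centring, with 44.1% of Hox entries lower, against 45.6% of all. At intermediate level (mean of 0.2 to 0.8) the medians were -0.000395 and -0.00991 for Hox entries, beside -0.00622 and -0.0176 for all. In both states 36 of the 111 gene entries were lower in siDNMT1 cells (32.4%, against 41.0% of all) and 21 higher (18.9%, against 16.0%). For promoters 14 of 33 were lower in both states (42.4%, against 36.6% of all) and 8 higher (24.2%, against 19.2%). Of the 58 islands, 28 were lower in siDNMT1 cells without induction and 44 with it (46.2% and 58.5% of all islands). The medians were 0.00150 and -0.0112, beside 0.000474 and -0.00111 for all. In OB cells 43 were lower after centring (74.1%, against 52.4% of all), with a median of -0.0104. At intermediate level 71.7% of Hox islands were lower in OB cells with a median of -0.0112, beside 68.1% and -0.00982 for all.

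**Figure D5:**
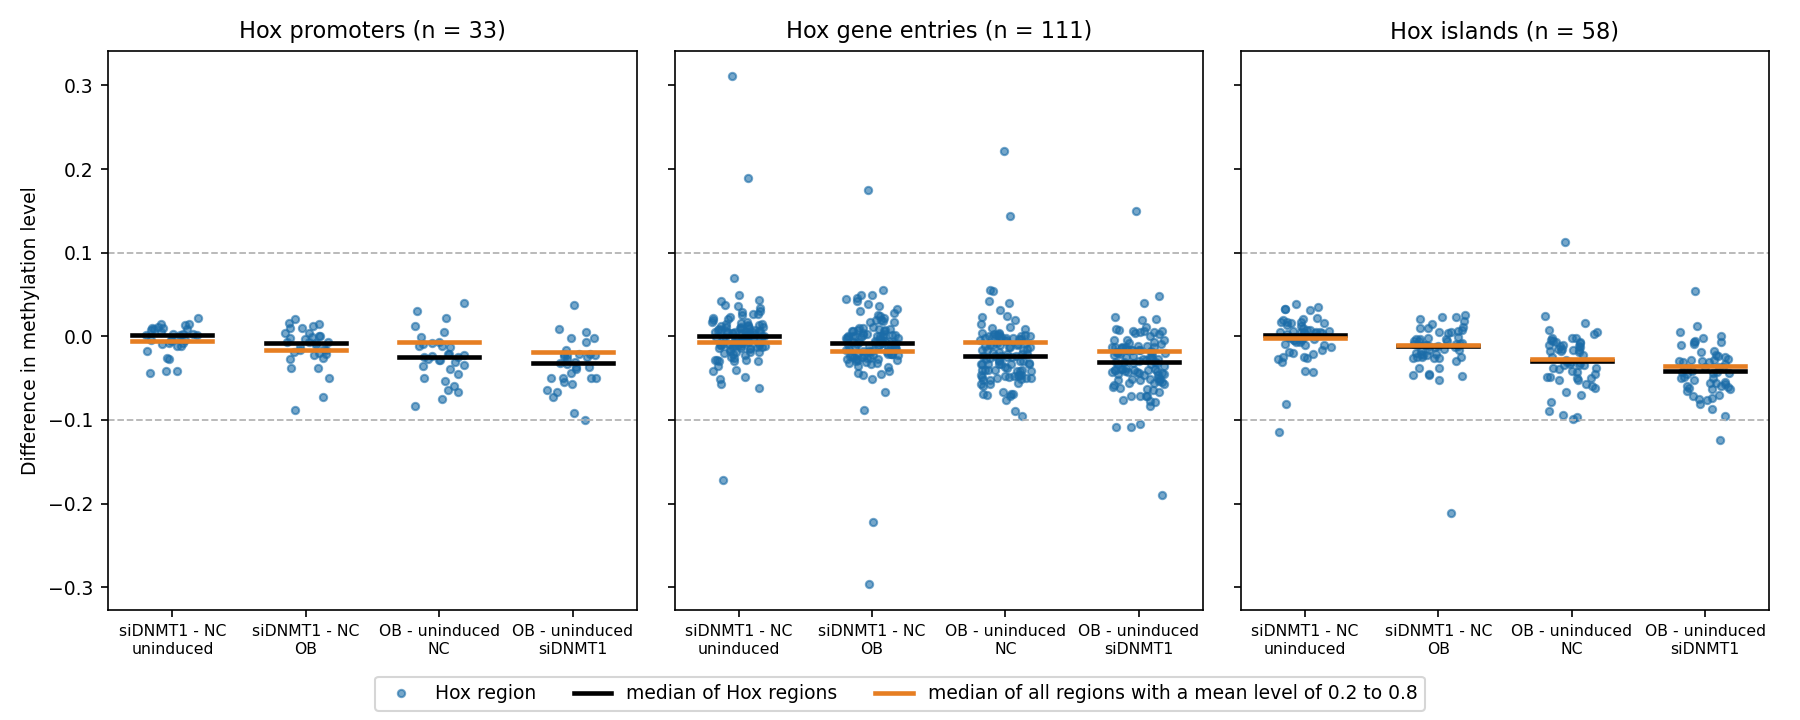
Difference in methylation level for each Hox promoter (left), gene entry (middle) and island (right) in the 4 comparisons; each point is 1 region, black lines are medians of the Hox regions, orange lines medians of all regions with a mean level of 0.2 to 0.8, and dashed lines mark ±0.1. In both comparisons of OB with uninduced cells the black median lies below the orange one for promoters and gene entries, and less far below it for islands.

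OB induction went with slightly lower levels over most of the Hox clusters. None of the 4 libraries held cells kept for the 3 days without OB medium. Medium and time in culture therefore cannot be told apart in these comparisons. Between NC uninduced and NC OB cells 28 of 33 Hox promoters were lower and 5 higher, with a median difference of -0.0250. Over all promoters 63.4% were lower, with a median of -0.00320, and among promoters of intermediate level (mean of 0.2 to 0.8) 58.5%, with a median of -0.00686. No Hox promoter passed 0.1 in NC cells, where 1.41% of all promoters fell and 0.764% rose. After each library was centred on its promoter median 21 of 33 were still lower (63.6%, against 24.9% of all promoters), and the median was -0.00785.

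The pair of siDNMT1 libraries, which shares no sample with the NC pair, gave like counts. There 30 of 33 promoters were lower in OB cells, with a median difference of -0.0315 beside -0.00654 for all promoters and -0.0187 for those of intermediate level. After centring 20 of 33 were lower (60.6%, against 27.4% of all promoters), with a median of -0.00764. Hoxa13, which with Hoxd13 shapes the digits, was the 1 promoter to fall, from 0.541 to 0.440, where 2.34% of all promoters fell and 1.04% rose. In NC cells it went from 0.546 to 0.462. In all, 28 of 33 Hox promoters (84.8%) were lower in both OB libraries than in the uninduced ones, against 50.4% of all promoters. Hoxa5 (0.499 to 0.539 in NC and 0.514 to 0.551 in siDNMT1 cells), Hoxc13 and Hoxd4 were the 3 that were higher in both. Medians over all promoters were lower in the OB libraries as well, and how much of the Hox difference goes with that was not tested beyond the centring.

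Gene entries followed the promoters. In NC cells 88 of 111 were lower with induction and 22 higher, with a median of -0.0237. Over all gene entries 61.1% were lower, with a median of -0.00348, and at intermediate level 59.6%, with -0.00632. In siDNMT1 cells 95 were lower and 16 higher, with a median of -0.0306. Over all gene entries 71.7% were lower, with a median of -0.00866, and at intermediate level 72.4%, with -0.0180. After centring 77 (69.4%) were lower in NC and 74 (66.7%) in siDNMT1 cells, against 41.1% and 40.8% of all gene entries. The centred Hox medians were -0.0148 and -0.0142. Past 0.1, none fell and 2 rose in NC cells, the 3′ UTR of Hoxa5 and the 5′ UTR of Hoxa6, where 1.30% of all entries fell and 0.834% rose. In siDNMT1 cells 4 fell and 1 rose, where 2.45% fell and 0.959% rose. The 4 were the Hoxa4 intron (0.436 to 0.327), the 5′ UTR of Hoxb7 (0.513 to 0.404), the 5′ UTR of Hoxc13 and the 3′ UTR of Hoxa5, and the 1 that rose was the 3′ UTR of Hoxd8 (0.113 to 0.263). Exons were lower most often, with 32 of 37 lower in NC and 36 of 37 in siDNMT1 cells.

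For islands the difference was somewhat larger than over all islands of similar level. In NC cells 52 of 58 Hox islands were lower with induction, with a median of -0.0296. At intermediate level 89.1% of Hox islands were lower with a median of -0.0334, beside 79.1% and -0.0270 for all. In siDNMT1 cells 54 of 58 were lower with a median of -0.0416. At intermediate level these were 95.7% and -0.0441, beside 84.6% and -0.0350 for all. After centring 49 of 58 were lower in NC and 53 in siDNMT1 cells, against 46.2% and 47.8% of all islands. All 16 Hoxb and all 11 Hoxd islands were lower in NC OB cells, as were 12 of 14 in Hoxc and 13 of 17 in Hoxa. Past 0.1, the Hoxa6 start island rose in NC cells, where 0.858% of all islands fell and 0.319% rose. In siDNMT1 cells a 31-CpG island in Hoxa9 fell from 0.606 to 0.482, where 1.00% fell and 0.263% rose. That island went from 0.586 to 0.487 in NC cells, just short of 0.1.

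Genes that work with the Hox proteins or sit beside them were read at their promoters for comparison. The TALE cofactors (Pbx, Meis and Pknox genes), homeodomain partners that bind DNA together with Hox proteins, had a median promoter level of 0.0831 in NC uninduced cells, and 0 of 9 changed by 0.1 in any comparison. The shares of all promoters past 0.1 were 1.04% or less for rises and 2.34% or less for falls. The upstream regulators (Cdx genes, Kmt2a and Polycomb subunits such as Ezh2, Eed and Suz12), which set or hold Hox expression, had a median of 0.0288 over the 8 of 10 with levels, and again 0 changed. The neighbours and noncoding RNAs inside the clusters had a median of 0.338 over 12 of 16, beside 0.331 for the Hox promoters. With siDNMT1 1 of the 12 rose in uninduced cells, Evx1, a homeobox gene at the posterior end of Hoxa (0.250 to 0.364), where 0.670% of all promoters rose. In OB cells 2 fell, Mir615 inside Hoxc5 (0.454 to 0.288) and Hoxb3os, antisense to Hoxb3 (0.297 to 0.169), where 1.41% of all promoters fell. With induction 1 fell in NC and 4 fell in siDNMT1 cells, where 1.41% and 2.34% of all promoters fell, and all 12 were lower in siDNMT1 OB than in siDNMT1 uninduced cells, as were 73.1% of all promoters.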

How the data were processed

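DNA methylation was measured in 4 bisulfite libraries of C3H10T1/2 cells, 1 per group. The series is described as reduced representation bisulfite sequencing, while the library protocol describes sonication and names no restriction enzyme. Per the labels and the study's methods, the authors used CASAVA, Trimmomatic 0.36 and Bismark 0.16.3 with mm10, and took the promoter as 2 kb upstream of the start. The deposited values are fractions, methylated over all CpG cytosines per region. The gene annotation, coverage minimum and weighting within a region are not given in the sources used here. Levels come without counts, so depth and precision are unknown.

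Entries were matched by Ensembl identifier. Islands start and end with CG at 3715 of 3715 sites on the Hox chromosomes of GRCm38.p6, which ties the coordinates to that build. Windows, CpG counts and distances were computed from GENCODE vM21 starts. With 1 library per group no test was run. Differences of at least 0.1, medians and directions were counted over regions with 4 levels, in the members and in all regions of the class. Full values are given for every member region past 0.1 in a siDNMT1 comparison, for the highest and lowest promoter of each cluster, for the highest and lowest island and for the Hoxa6 promoter. Other entries named were chosen after their values were seen. The members and gene lists were chosen with earlier results of these data known. Alternatives were thresholds of 0.05 and 0.2, centring, a mean level of at least 0.1, levels in the libraries compared only, promoters free of other members, all islands in the cluster spans and, chosen after seeing the data, leaving out annotated regions with fewer than 10 CpG. Tables were handled in pandas 2.3.3 and plots drawn in matplotlib 3.10.9 under Python 3.11.15, with scipy 1.17.1 for rank correlations, and the scripts were tested on simulated data.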

Additional observations from a re-analysis of the deposited data

Results flagged for a closer look

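The 3′ UTR of Hoxa5 was singled out because it moved in opposite directions in the siDNMT1 comparisons: it was higher by 0.190 in siDNMT1 than in NC uninduced cells, and its difference was -0.222 in OB cells. This contrast between the states rests on 1 library each and was not tested. The exon and intron entries of Hoxa5 did not show it and were higher in siDNMT1 cells in both states.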

How the results depend on the processing

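Of 90 recomputed values 5 reversed and 16 moved, counts by more than 1.5 times or medians beyond the 95% interval of the median over the Hox regions, and 69 did neither. Some of these 69 still shifted: uninduced siDNMT1 medians went to 0.00441 (promoters), 0.00310 (gene entries) and 0.000806 (islands) with centring, the promoter one to 0.00268 and the siDNMT1 OB one to -0.0161 without windows that overlap another member, and the NC induction median of gene entries to -0.0148 with centring. Counting from 0.05 gave 3 promoters with siDNMT1 in OB cells and 7 with induction in NC cells (0 each from 0.1), 7, 7 and 21 gene entries with siDNMT1 in uninduced cells, in OB cells and with induction in NC cells (3, 3 and 2 from 0.1), and 2, 2 and 13 islands (1 each from 0.1). Counting from 0.2 left 1 gene entry with siDNMT1 in uninduced cells and 1 with induction, and 0 islands in the same comparisons. Shares over all regions were not computed at 0.05 or 0.2, so these counts cannot be set against their class. Leaving out regions with fewer than 10 CpG, a choice made after seeing the data, left 1 gene entry in each of the 3 comparisons, and turned the uninduced siDNMT1 median of gene entries from 0.000166 to -0.000395. Centring each library on its class median turned the siDNMT1 OB medians to 0.00148 for promoters and 0.00318 for gene entries. With it 45.5% of Hox promoters and 44.1% of Hox gene entries were lower, against 37.7% and 45.6% of all. For islands the siDNMT1 OB median went from -0.0112 to -0.0104. Centring also brought the NC induction median of promoters from -0.0250 to -0.00785, with 63.6% of Hox promoters lower, against 24.9% of all. The uninduced siDNMT1 island median of 0.00150 turned to -0.000605 with a mean level of at least 0.1 and to -0.000627 with all islands in the spans. Thresholds and filters change counts by their construction, and for the rest the cause was not tested. No paired analysis was possible because each group has 1 library and no test was run, and no replicate could be left out. Without read counts, a small difference cannot be told apart from counting error.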
